A study of Mus musculus with 8 samples.

Results

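The 9 genes described here are leukocyte lineage markers, chosen by symbol from the 27036 genes of a mouse prostate RNA-seq table. They are Ptprc for leukocytes in general, Lyz2, Cd68 and Csf1r for macrophages and other myeloid cells, Cd3e and Lck for T cells, Cd79a and Ms4a1 for B cells, and Igj (now named Jchain) for plasma cells. The table held 8 libraries of total RNA, 3 from WT controls, 3 from prostatic intraepithelial neoplasia (PIN) and 2 from prostate cancer (PCa). PIN and PCa tissues came from mice in which Osr1-driven Cre switches on a transgene and a membrane GFP reporter (R26mTmG) in cells of the Osr1 lineage. The WT controls are labelled as WT only, and the study gives their genotype as R26mTmG/+:Osr1Cre/+, so that they carry Cre and the reporter but not the transgene. The study describes the WT mice as matched for sex and age, and the ages themselves were not stated for these libraries. All mice were on a mixed C57BL/6 and 129S1/SvImJ background, and lesion pieces were chosen under the microscope for a high content of atypical or tumor cells.

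CD45, the protein of Ptprc, is a membrane phosphatase found on nearly all nucleated blood cells, and its level in a tissue extract is widely read as a summed leukocyte signal. Lysozyme, CD68 and the CSF1 receptor mark macrophages, the CD3 complex and its kinase LCK carry signals from the T cell receptor, CD79A and CD20 sit on B cells, and the J chain links the immunoglobulin units that plasma cells secrete. The normal prostate holds resident macrophages and scattered lymphocytes between its glands, and prostate tumors vary widely in how many such cells they hold. In a bulk tissue extract, fewer cells of a type and less RNA per cell cannot be told apart.

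The libraries held between 21751803 and 29730420 counts over genes. Values are given as CPM (counts scaled to library size) after TMM scaling, a normalization that aligns the bulk of the genes between libraries, and on this scale 3 counts, the floor used here, stood for 0.0964 to 0.148 CPM. Intervals are 95% Poisson intervals of 1 library's count, except those of the ratios of PCa 1 to PCa 2 and of S100a8 counts. Those are exact 95% binomial intervals of the counts compared. Both kinds, like the floor, cover counting error only. Genes of the seminal vesicle, a gland beside the prostate, summed to 34358 TPM (CPM corrected for gene length) in WT 1 but 0.175 and 0.362 TPM in WT 2 and WT 3, and to 11335 TPM in PCa 1 and 1130 TPM in PCa 2, so WT 1 and PCa 1 stood apart from the rest of their groups. The numbers in the library names place WT 1 in a series of its own, WT 2 and WT 3 in another, and every PIN and PCa library in yet another, so that series and condition cannot be told apart in a comparison with WT, while PIN and PCa share a series.

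The 9 genes lie on 9 chromosomes in the mm9 build that the table used. Apart from Csf1r, given with its values, they are Ptprc (chr1:139959438-140071882), Lyz2 (chr10:116714390-116719377), Cd68 (chr11:69477715-69479655), Cd3e (chr9:44806826-44817673), Lck (chr4:129225588-129250885), Cd79a (chr7:25682400-25687216), Ms4a1 (chr19:11324654-11340669) and Igj (chr5:88949537-88956916). Reads were counted over exons, whose merged length ran from 1257 bases in Cd68 to 5816 bases in Ptprc. Csf1r shares 871 exonic bases with Hmgxb3 on the opposite strand, and the strand setting of the counting was not stated. Lyz2 has a near-identical neighbour in Lyz1, with 425 of 447 coding positions the same (95.1%) and a longest identical run of 118 bases, so reads may have been split between them. Lyz1 itself stayed between 0.205 and 6.69 CPM.

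The stretch of 250 bases before the annotated start is shown for these genes because they moved together across the libraries, above every WT library in PCa 1 and below every WT library in PCa 2 on the TMM scale. The sequences are from RefSeq on GRCm38.p6, read on the coding strand, at chr1:138175306-138175555 (- strand), chr10:117282273-117282522 (- strand), chr11:69666171-69666420 (- strand), chr9:45009612-45009861 (- strand) and chr4:129573642-129573891 (- strand). Capitals mark GAGGAA or its reverse complement TTCCTC, the core letters bound by PU.1, a transcription factor of myeloid and B cells.
Ptprc: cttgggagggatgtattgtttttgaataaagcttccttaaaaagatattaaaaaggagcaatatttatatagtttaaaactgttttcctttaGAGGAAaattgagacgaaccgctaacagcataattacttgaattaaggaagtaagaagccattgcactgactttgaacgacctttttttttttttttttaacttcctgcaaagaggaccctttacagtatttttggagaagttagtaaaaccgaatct
Lyz2: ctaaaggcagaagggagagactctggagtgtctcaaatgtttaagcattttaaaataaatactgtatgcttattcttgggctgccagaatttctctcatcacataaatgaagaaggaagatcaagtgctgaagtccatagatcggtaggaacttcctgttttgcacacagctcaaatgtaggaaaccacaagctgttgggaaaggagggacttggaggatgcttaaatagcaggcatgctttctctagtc
Cd68: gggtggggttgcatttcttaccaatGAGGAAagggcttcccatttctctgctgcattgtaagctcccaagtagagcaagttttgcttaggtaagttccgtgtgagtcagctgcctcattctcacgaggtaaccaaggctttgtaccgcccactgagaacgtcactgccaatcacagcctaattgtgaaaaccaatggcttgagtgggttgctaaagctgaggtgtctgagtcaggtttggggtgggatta
Cd3e: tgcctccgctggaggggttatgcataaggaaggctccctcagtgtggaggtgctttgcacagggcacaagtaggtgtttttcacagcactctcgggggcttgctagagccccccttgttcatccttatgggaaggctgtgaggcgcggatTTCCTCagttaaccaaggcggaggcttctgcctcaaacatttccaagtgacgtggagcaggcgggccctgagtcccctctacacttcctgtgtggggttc
Lck: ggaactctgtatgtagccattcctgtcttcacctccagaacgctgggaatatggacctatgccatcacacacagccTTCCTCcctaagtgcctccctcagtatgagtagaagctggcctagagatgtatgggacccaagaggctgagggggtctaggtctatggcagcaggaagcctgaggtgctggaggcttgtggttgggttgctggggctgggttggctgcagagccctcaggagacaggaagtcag
The letters began 158 bases before the start in Ptprc, 225 in Cd68, 100 in Cd3e and 174 in Lck, and the Lyz2 window held none. RefSeq gave 9 start sites for 7 of the 9 genes, and among the start sites not shown Cd79a held the letters 140 bases before its start while Igj and the second sites of Ptprc and Lck did not. Of 32851 mouse promoters of this length, 23.3% held them on either strand, and a match describes these letters only. A search for CCCNNGGG, the paired half-sites of the B cell factor EBF1, and for the octamer ATGCAAAT of immunoglobulin promoters found neither in these windows, against 11.8% and 1.6% of all promoters.

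Ptprc, the summed leukocyte marker, was measured at 12, 5.16 and 9.75 CPM in WT 1, 2 and 3, at 9.05, 24.7 and 5.94 CPM in PIN 1, 2 and 3, and at 45.4 and 5.0 CPM in PCa 1 and 2. The highest and the lowest of the 8 values were thus both PCa libraries. PCa 2 was close to WT 2, however, and their counting intervals overlapped (4.22 to 5.88 CPM in PCa 2 and 4.25 to 6.19 CPM in WT 2). PCa 1 was 5.06-fold the WT mean of 8.97 ± 3.48 CPM (SD, n = 3), a log2 difference of 2.34 with a counting interval of 2.26 to 2.41, and PCa 2 was below that mean at a log2 difference of -0.84 (-1.09 to -0.61). The 3 PIN libraries overlapped the WT range, with PIN 2 above it.

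Lyz2, the secreted lysozyme of macrophages and neutrophils, was at 60.3, 55.8 and 21.4 CPM in WT, 26.9, 56.0 and 26.1 CPM in PIN, and 237 and 14.5 CPM in PCa. WT and PIN overlapped throughout, whereas PCa 1 lay above and PCa 2 below every one of those 6 libraries. Against the WT mean of 45.8 ± 21.2 CPM the log2 differences were 2.37 in PCa 1 and -1.66 in PCa 2. Cd68, a lysosomal membrane protein of macrophages, was at 6.66, 5.38 and 3.98 CPM in WT, 5.03, 9.01 and 5.34 CPM in PIN, and 22.7 and 3.53 CPM in PCa. Again PCa 1 was the highest library and PCa 2 the lowest, but PCa 2 was close to WT 3, and the counting intervals of those libraries overlapped.

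Csf1r, the receptor that keeps macrophages alive, lies at chr18:61265226-61291803 and was at 39.8, 11.5 and 15.1 CPM in WT, 27.3, 39.1 and 24.8 CPM in PIN, and 48.3 and 5.41 CPM in PCa. Its order differed from that of Lyz2 and Cd68 in that WT 1 and PIN 2 came close to PCa 1, so that PCa 1 was 2.19-fold the WT mean of 22.1 ± 15.4 CPM while Lyz2 was 5.18-fold and Cd68 4.26-fold. PCa 2 was at 0.245 of the WT mean for Csf1r, a log2 difference of -2.03 (-2.27 to -1.81).

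The T cell genes were low throughout. Cd3e, a chain of the T cell receptor complex, had 31, 12 and 38 counts in WT, 24, 84 and 8 in PIN, and 67 and 5 in PCa. These came to 1.53, 0.543 and 1.39 CPM in WT, 0.862, 2.89 and 0.301 CPM in PIN, and 2.15 and 0.171 CPM in PCa. PIN 2, not PCa 1, was the highest library, and the intervals of PIN 3 and PCa 2 overlapped at the low end. Lck, the kinase that starts signalling from that receptor, was at 4.05, 1.45 and 1.61 CPM in WT, 2.66, 3.58 and 2.52 CPM in PIN, and 4.24 and 0.240 CPM in PCa. PCa 1 was near WT 1 and PIN 2 here, and PCa 2, with 7 counts, lay far below the other 7 libraries at a log2 difference of -3.30 (-4.62 to -2.26) from the WT mean.

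The B cell genes did not move alike. Cd79a, a signalling chain of the B cell receptor, had 5, 7 and 7 counts in WT, 0, 24 and 0 in PIN, and 53 and 4 in PCa, and it passed the filter for testing in no comparison because only PCa 1 exceeded 1 CPM. At 1.70 CPM PCa 1 was above the other 7 libraries, and PCa 2 at 0.137 CPM was within counting error of the WT libraries at 0.247 to 0.317 CPM. The 2 PIN libraries with no count, PIN 1 and PIN 3, had upper interval limits of 0.133 and 0.139 CPM. Ms4a1, which encodes the B cell surface protein CD20, was at 0.888, 0.769 and 3.58 CPM in WT, 0.970, 3.47 and 1.02 CPM in PIN, and 1.35 and 0.103 CPM in PCa. It was the one tested gene for which PCa 1 was not above every WT library, and its highest values were in WT 3 and PIN 2.

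Igj, the plasma cell gene, had the widest range within each group as highest over lowest library, apart from Cd79a in PIN, which had no count in 2 libraries. Its counts were 498, 4 and 700 in WT, 423, 425 and 16 in PIN, and 13153 and 73 in PCa, or 24.6, 0.181 and 25.6 CPM, 15.2, 14.6 and 0.602 CPM, and 422 and 2.50 CPM. The highest WT library was 141-fold the lowest and the highest PIN library 25.3-fold the lowest, with WT 2, PIN 3 and PCa 2 as the low libraries of their groups. PCa 1 was 25.2-fold the WT mean of 16.8 ± 14.4 CPM, a log2 difference of 4.65, and PCa 2 stood inside the WT range.

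**Figure D1:**
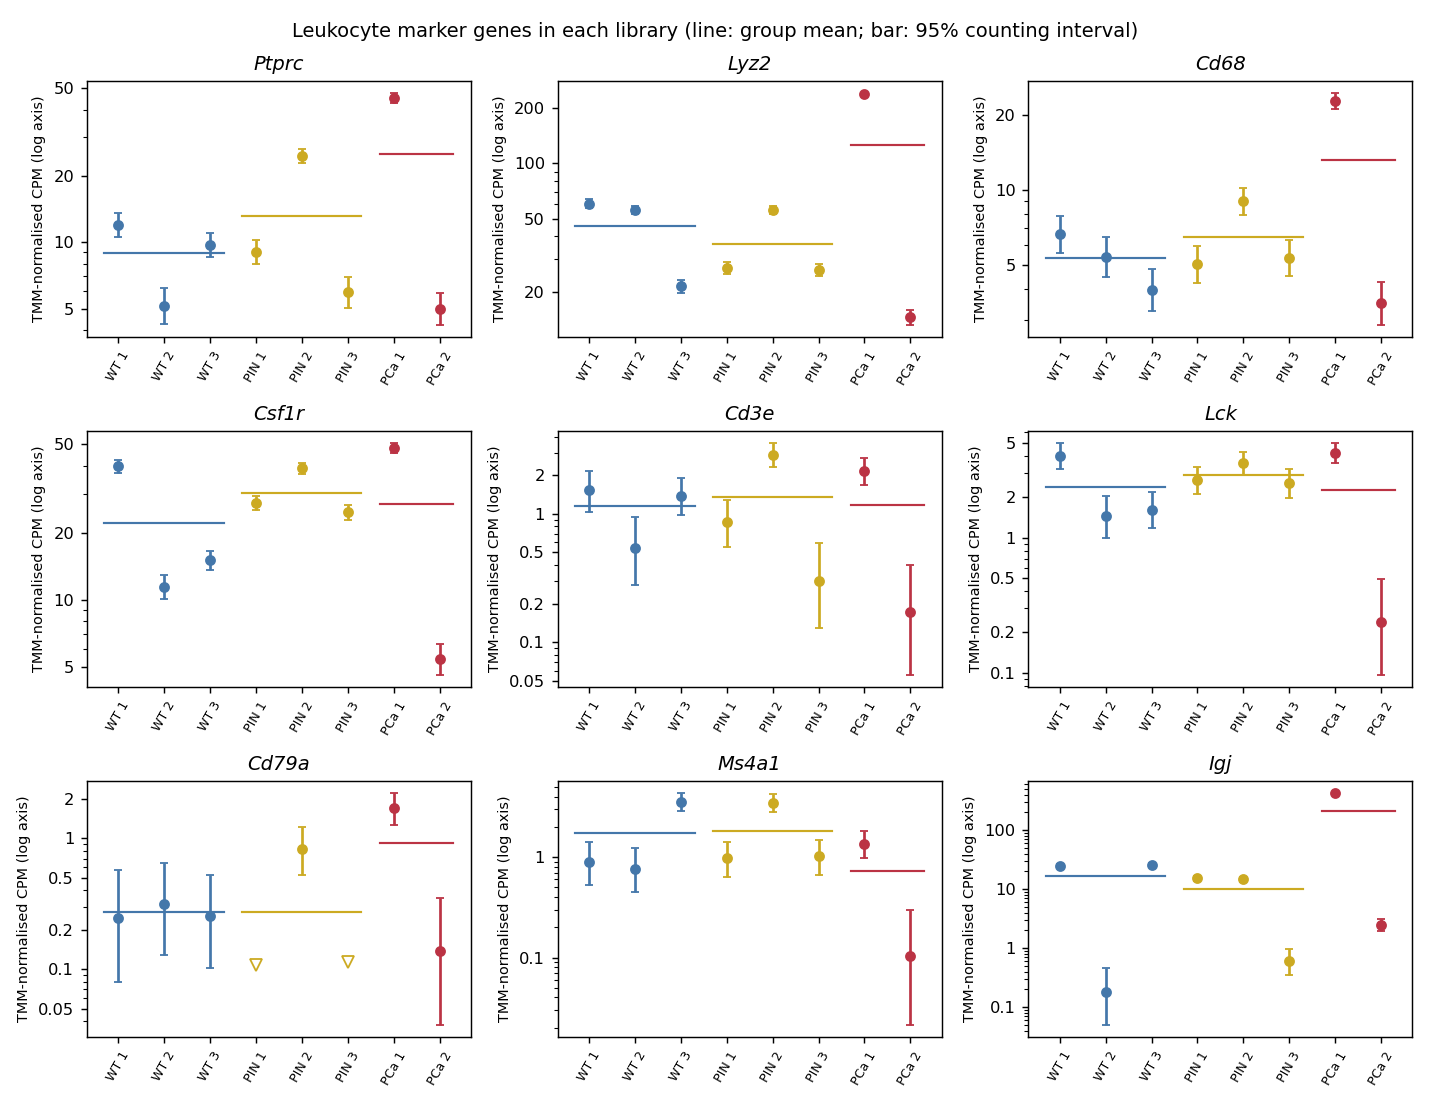
TMM-normalised CPM on a log axis for each of the 9 genes in each of the 8 libraries, with group means as lines and 95% counting intervals as bars. Open triangles mark the floor of 3 counts for libraries with 0 counts. Ptprc runs from 5.0 CPM in PCa 2 to 45.4 CPM in PCa 1, and Igj from 0.181 CPM in WT 2 to 422 CPM in PCa 1.

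PCa 1 exceeded PCa 2 for every member. The ratio was 9.08 for Ptprc (7.66 to 10.8), 16.3 for Lyz2 (14.8 to 18), 6.45 for Cd68 (5.24 to 8.01) and 8.93 for Csf1r (7.58 to 10.6). For the genes with few counts in PCa 2 the intervals were wide, with 12.6 for Cd3e (5.13 to 40.0), 17.7 for Lck (8.35 to 44.9), 12.4 for Cd79a (4.58 to 47.3) and 13.1 for Ms4a1 (4.20 to 66.3). Igj had the largest ratio, 169 (134 to 216). All 8 tested members were at least 4-fold higher in PCa 1, as were 15.2% of the 14034 genes tested, and the median log2 difference between the libraries was 3.68 over the members and -0.01 over 13809 genes with counts in both. With 1 library on each side these differences have no replicate check.

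Of the 8 tested members, 7 were above every WT library in PCa 1, against 32.9% of all genes tested, with Ms4a1 the exception, and none was below every WT library there (32.3% of all genes). In PCa 2, 7 were below every WT library, against 36.0% of all genes, with Igj the exception, and none was above every WT library there (31.9%). Both held for 6 members, Ptprc, Lyz2, Cd68, Csf1r, Cd3e and Lck, against 7.13% of all genes, and Cd79a, below the filter, showed the same order. PCa 1 was the highest of the 8 libraries for 6 of the 8 (20.0% of all genes), and PCa 2 the lowest for 7 of the 8 (25.1%). The count of 6 members depended in part on the scaling. With total counts alone or TPM it was 4, Lyz2, Csf1r, Cd3e and Lck, because Ptprc and Cd68 in PCa 2 then fell within the WT range, and it was 5 with upper-quartile scaling and 6 with DESeq2 size factors. Without WT 1, whose seminal vesicle signal set it apart, it stayed at 6, and without WT 2 or WT 3 it was 7.

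**Figure D2:**
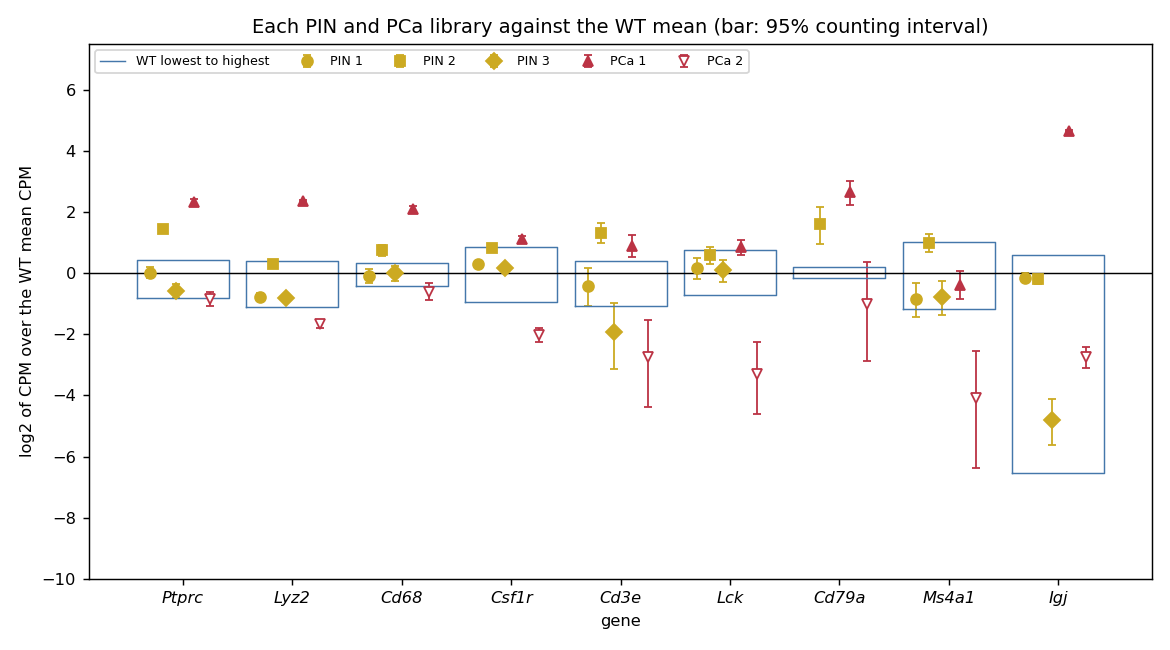
Log2 of each PIN and PCa library's CPM over the mean WT CPM, by gene, with 95% counting intervals and the range of the 3 WT libraries boxed. PIN 1 and PIN 3 had no Cd79a count and are not drawn there. The PCa 1 triangles lie above the WT boxes for all genes but Ms4a1, and the open PCa 2 triangles lie below them for all genes but Igj.

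In the comparison of PIN with WT, which asks what the early lesion changed, no gene of the whole table passed (0% of 14034), so no member did. A call here required an absolute log2 fold change above 1 and a Benjamini-Hochberg adjusted p under 0.05 in edgeR's quasi-likelihood test. The members' log2 fold changes ran from -0.73 for Igj to 0.56 ± 0.83 (SE) for Ptprc, with a median of 0.25 against -0.02 over all tested genes. DESeq2 called 39 genes, none of them a member. The lowest unadjusted p among the members in edgeR's test was 0.517, and 492 genes of the table had an unadjusted p under 0.05. The ranges of the 3 PIN and 3 WT libraries overlapped for all 8 tested members, whereas they were apart for 12.9% of all genes, 6.48% with PIN higher and 6.38% with PIN lower. Within PIN, library 2 was the highest of the 3 for 7 of the 8 members, all but Igj, against 36.5% of all genes. Without PIN 2, the fitted difference for Ptprc was -0.26 and for Cd3e -0.98.

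PCa was compared with WT to ask what distinguishes the tumor from normal tissue. 8.54% of the tested genes passed, 4.35% higher and 4.18% lower, and none of the 8 members did. The lowest unadjusted p among them in edgeR's test was 0.10, and none was under 0.05 in edgeR's test, DESeq2 or limma-trend, against 3866 genes of the table in edgeR. The largest value was that of Igj, at 3.66 ± 2.07 on the log2 scale with an adjusted p of 0.296 in edgeR's test. Ptprc was at 1.49 ± 0.91 (adjusted p = 0.330, edgeR), Lyz2 at 1.46 ± 0.96 (0.367) and Cd68 at 1.30 ± 0.69 (0.270). Csf1r at 0.28 ± 0.85, Cd3e at 0.01 ± 1.19 and Lck at -0.08 ± 1.00 lay near 0 with wide errors, and Ms4a1 was at -1.26 ± 1.21. The members' median was 0.79 against 0.01 over all tested genes. No member had PCa and WT ranges apart, since the 2 PCa libraries lay on either side of WT for most members, while 37.3% of all genes had such ranges.

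Each PCa library was also left out in turn, in fits in which the remaining PCa library is assumed to vary like the other groups. Without PCa 2, Lyz2 (log2 fold change 2.38, adjusted p = 0.0469) and Cd68 (2.1, adjusted p = 0.0292) passed in edgeR's test as higher than WT. Without PCa 1, Lck passed as lower than WT (-3.27, adjusted p = 0.0483 in edgeR's test), and Ptprc, Lyz2, Cd68, Csf1r, Cd3e and Igj also had negative fold changes, from -0.59 for Cd68 to -2.74 for Igj. The direction of the group difference was thus set by which PCa library was kept for each of these 7 genes.

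In PCa against PIN, the comparison within 1 library series, 5.72% of tested genes passed, 2.55% higher and 3.17% lower, and again no member did. The lowest unadjusted p among the members was 0.0746 in edgeR's test, against 3205 genes under 0.05 over the table. In DESeq2 1 member, Igj, had an unadjusted p under 0.05 (0.036, adjusted p = 0.147), and in limma-trend none did. Igj was at 4.39 ± 2.13 (adjusted p = 0.269, edgeR), Lyz2 at 1.79 ± 0.96 (0.313), Cd68 at 1.02 ± 0.69 (0.425) and Ptprc at 0.93 ± 0.90 (0.594). Csf1r (-0.18), Cd3e (-0.22), Lck (-0.38) and Ms4a1 (-1.32 ± 1.21) had negative values. The members' median was 0.38 against 0.07 over all tested genes, and none had group ranges apart, against 44.3% of the table. Without PCa 2, Lyz2 passed as higher (2.72, adjusted p = 0.0394 in edgeR's test), and without PCa 1, Lck passed as lower (-3.57, adjusted p = 0.0416).

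**Figure D3:**
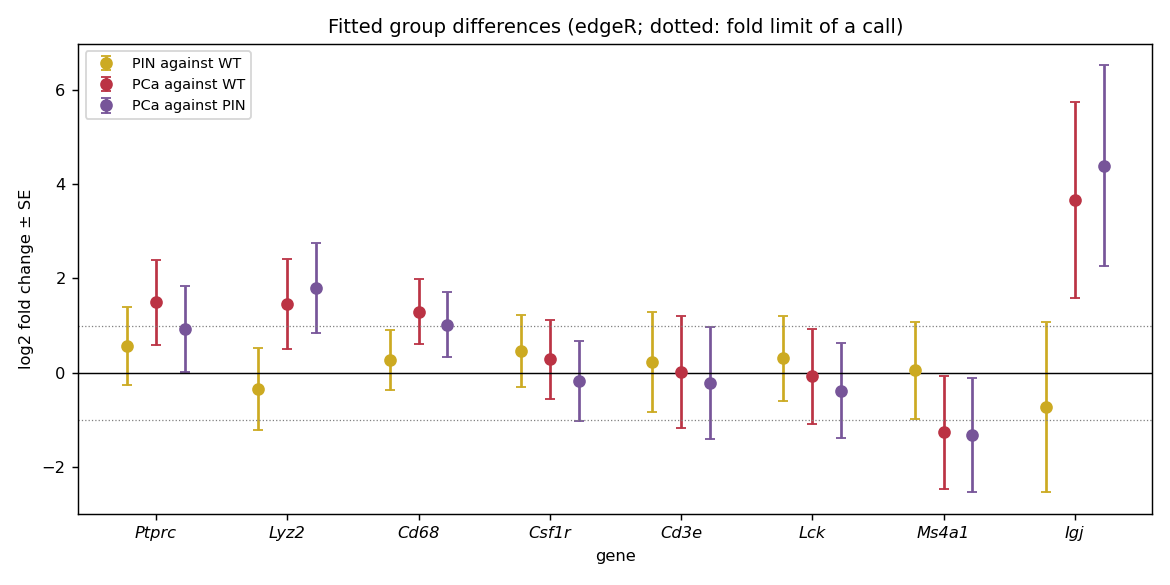
Fitted log2 fold changes with standard errors for the 8 tested genes in the 3 comparisons of groups. Dotted lines mark the fold limit of a call, an absolute log2 value of 1. Igj has the largest values, 3.66 and 4.39 in the comparisons with PCa, and the largest errors, and no gene passed.

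Levels of different genes were compared per length, as TPM. In WT the highest mean level was that of Lyz2 at 103 ± 45.5 TPM, followed by Igj at 30.4 ± 26.2, Csf1r at 13.2 ± 9.80, Cd68 at 12.8 ± 3.54 and Ptprc at 4.82 ± 2.30 TPM (SD, n = 3). Cd3e at 2.54 ± 1.38, Lck at 2.50 ± 1.67 and Ms4a1 at 2.23 ± 2.24 TPM did not differ beyond their spread, nor did Csf1r and Cd68, and Cd79a was lowest at 0.559 ± 0.032 TPM. In PCa 1 Igj came first at 890 TPM, ahead of Lyz2 at 691 TPM. In PCa 2 Lyz2 was first again at 44.0 TPM, with Cd68 at 11.1, Igj at 5.47, Csf1r at 4.11 and Ptprc at 3.41 TPM, and the T and B cell genes were each at 0.473 TPM or less.

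The ratio to Ptprc in the same library describes the makeup of the leukocyte signal apart from its size. Lyz2 lay between 3.28 and 5.58 log2 units above Ptprc in WT and PIN, and at 4.53 and 3.69 in PCa 1 and PCa 2, inside that range. Cd68 was also inside its WT and PIN range in both PCa libraries, at 1.21 and 1.71 log2 units. With the summed pan-leukocyte list in place of Ptprc, however, both genes were lower in PCa 2, at -4.31 for Lyz2 and -6.29 for Cd68, than in any WT or PIN library (lowest -3.57 and -5.93). Cd52 made up 86.5% and 87.3% of that sum in PCa 1 and PCa 2, 83.2%, 37.3% and 82.1% in PIN and 31.1% to 66.0% in WT, and without Cd52 in the sum Cd68 in PCa 2 was inside its WT and PIN range, at -3.31, and Lyz2 just below it, at -1.32 against a lowest value of -1.27. Csf1r was 0.24 and 0.27 log2 units above Ptprc in PCa 1 and PCa 2, below the lowest of the other 6 libraries at 0.78. Although their Ptprc levels differed 9.08-fold, the PCa libraries were thus close to each other in the ratio of Csf1r to Ptprc. They were not close with the other denominators. Csf1r was at -6.08 and -7.73 in PCa 1 and PCa 2 against the pan-leukocyte list, and at -3.19 and -4.75 without Cd52 in the sum.

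Of the T and B cell genes, Cd3e, Lck and Ms4a1 were also lower relative to Ptprc in both PCa libraries than in the others, and Cd79a was not. Cd3e was at -2.38 and -2.85 log2 units relative to Ptprc in PCa, with PIN 3 next at -2.29 and the WT libraries between -1.23 and -0.79. Lck was at -2.43 and -3.39 against a lowest value of -1.80 elsewhere, and Ms4a1 at -3.87 and -4.40 against -2.55. Cd79a was at -2.74 and -3.19 in PCa, inside its range of -3.61 to -2.03 in the 4 WT and PIN libraries with a count. In all, 4 of the 8 ratios, those of Csf1r, Cd3e, Lck and Ms4a1, were lower in both PCa libraries than in all 6 WT and PIN libraries, and none was higher in both. Of the 14033 tested genes other than Ptprc, 9.61% had a ratio to Ptprc that was lower in both, and 1.38% one that was higher. With the summed pan-leukocyte list in place of Ptprc there were 3 of 9, Csf1r, Lck and Ms4a1, as Cd3e in PCa 1 then fell within the other libraries, and 33.4% of all tested genes were lower in both and 1.13% higher, so that count was near the background. Without Cd52 in the sum, Ms4a1 was the 1 member of 9 that was lower in both, against 10.2% of all tested genes, with 5.85% higher in both, so the low ratios of Csf1r, Cd3e and Lck in PCa 1 depend on the denominator. The sum without Cd52 includes Lcp1 and Ptpn6, which varied little (133 to 208 and 17.2 to 28.9 CPM over the 8 libraries). It was 323 and 110 TPM in PCa 1 and PCa 2, so it differed less between them than Ptprc did (29.8 and 3.41 TPM). The ratios of Cd3e, Lck and Ms4a1 rest on 3 to 7 counts in PCa 2, and no ratio was tested. Igj varied most in makeup, from -3.15 log2 units in WT 2 to 4.90 in PCa 1.

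**Figure D4:**
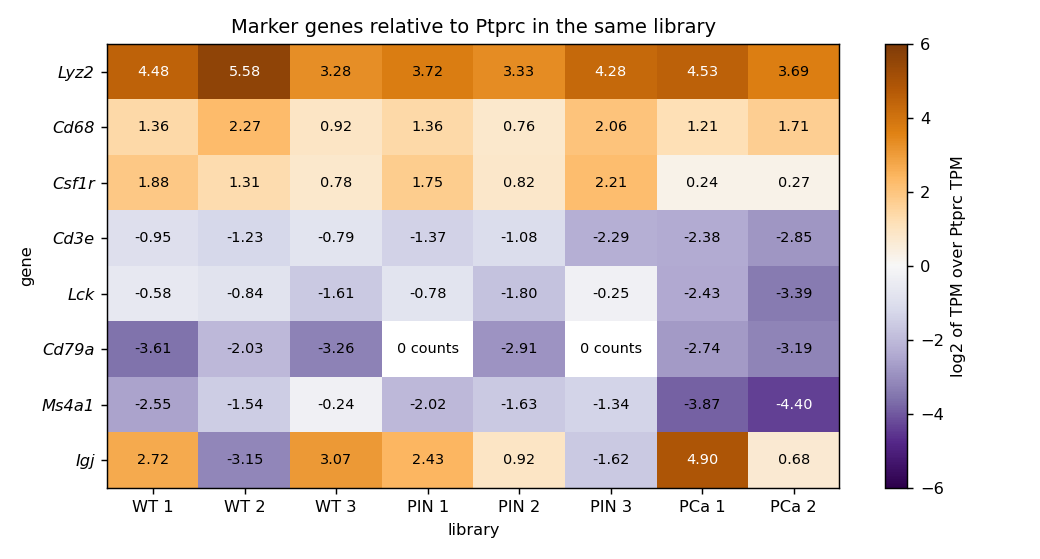
Log2 of each gene's TPM over the Ptprc TPM of the same library, by gene and library, with the value printed in each cell. Csf1r, Cd3e, Lck and Ms4a1 have their lowest ratios in the PCa columns, and Igj runs from -3.15 in WT 2 to 4.90 in PCa 1.

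Further marker genes of the same lineages were read from lists of 101 other genes, of which 100 were in the table and 66 passed the filter. Their median distance from the WT mean, in log2 units, was 1.31 in PCa 1 and -1.16 in PCa 2, against -0.06 and -0.08 over all tested genes. PCa 1 was the highest library for 39 of the 66 and PCa 2 the lowest for 38. 30 of the 66 were above every WT library in PCa 1 and below every one in PCa 2, and 53 were at least 4-fold higher in PCa 1 than in PCa 2. Only 5 were higher in PCa 2, Lcp1, Blnk, Prdm1, Xbp1 and Kit.

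Across the 12 pan-leukocyte genes, members of the list included here and in the lists that follow, none passed in any comparison, and 7 were above every WT library in PCa 1 and below every one in PCa 2. Cd53, a leukocyte tetraspanin, was at 2.78 to 8.96 CPM in WT and 44.0 and 2.40 CPM in PCa. Cd52, a small surface protein of lymphocytes, departed from Ptprc, with 21.1 to 123 CPM in WT, 241 and 211 CPM in PIN 1 and PIN 3 and 641 and 227 CPM in PCa, and it did not pass in PCa against WT (2.89 ± 0.95, adjusted p = 0.0997 in edgeR's test). Lcp1, an actin-bundling protein, and Ptpn6, a phosphatase, varied little, at 133 to 208 CPM and 17.2 to 28.9 CPM over the 8 libraries.

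Of 21 tested macrophage and monocyte genes, 19 were highest in PCa 1 and 12 lowest in PCa 2. Cd14, the endotoxin co-receptor, was at 3.69 to 8.28 CPM in WT and 55.8 and 1.44 CPM in PCa, and Trem2, a lipid receptor of tissue macrophages, at 0.271 to 0.789 CPM in WT and 5.14 and 0.856 CPM in PCa. Cd163, a haemoglobin scavenger receptor of resident macrophages, was at 13.4, 2.13 and 3.91 CPM in WT, 16.1, 28.7 and 13.4 CPM in PIN and 10.4 and 0.137 CPM in PCa, and it did not pass in any comparison.

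Of the neutrophil genes, Csf3r was detected in every group, the others were near 0 outside PCa, and in PCa 2 the signal was mostly S100a8. The 11 genes of the list summed to 0.646 to 2.65 TPM in WT and 1.93 to 2.67 TPM in PIN, and to 776 and 62.3 TPM in PCa 1 and PCa 2. S100a8 made up 45.7% and 89.6% of those PCa sums, and the other 10 genes summed to 6.49 TPM in PCa 2. S100a8, a calcium-binding protein abundant in neutrophils, was at 36.4 and 5.51 CPM in PCa and at most 0.0987 CPM in any other library, so it entered the test only through the PCa libraries and had to differ. It passed in PCa against WT (9.26 ± 1.36, adjusted p = 0.0108) and in PCa against PIN (9.51 ± 1.36, adjusted p = 0.0147) in edgeR's test. Its counts, summed over libraries, were 1294 in PCa and 2 in WT, a ratio per library size of 748 (exact counting interval 207 to 6181), and 2 in PIN, a ratio of 895 (247 to 7401), while the fitted values depend on the prior count. Without 1 library the value against WT ran from 7.33 (without PCa 1) to 12.2 (without WT 1) and that against PIN from 7.59 (without PCa 1) to 10.3 (without PCa 2). Leaving out any 1 PIN library ended the call against PIN, with adjusted p-values of 0.0593 to 0.0767 in edgeR's test. Csf3r, the receptor for the neutrophil growth factor, was at 19.5 CPM in PCa 1 and 0.753 CPM in PCa 2, the latter inside the WT range of 0.181 to 0.938 CPM, and did not pass (4.43 ± 1.29, adjusted p = 0.0735 in edgeR's test). S100a9, the partner of S100a8, was at 52.4 CPM in PCa 1 and 0.650 CPM in PCa 2, and Cxcr2, a chemokine receptor of neutrophils, at 6.71 and 0.0684 CPM. Ly6g, a defining surface marker of mouse neutrophils, was at 0.0642 CPM in PCa 1 and 0 in the other 7 libraries, and Elane, Ngp and Camp, granule genes of maturing neutrophils, did not exceed 0.05 CPM.

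Of 9 tested T cell genes, 8 were above every WT library in PCa 1 and below every one in PCa 2, and none passed. Cd4, the helper cell co-receptor that macrophages also carry, was the exception, at 1.54 and 0.958 CPM in PCa, both between the WT values of 0.0905 to 1.63 CPM. Cd2, an adhesion receptor, was at 0.588 to 0.839 CPM in WT and 1.9 and 0.0342 CPM in PCa, while Cd28, the co-stimulatory receptor, was less variable at 2.26 to 8.91 CPM over the 8 libraries. The cytotoxic genes Gzma and Gzmb were highest in PIN 2, at 2.72 and 3.37 CPM, and had at most 0.0684 CPM in PCa 2. In PCa 1 they were at 0.257 and 0.931 CPM, also below every WT library (0.592 to 1.24 and 1.04 to 1.58 CPM). Nkg7, a granule protein, and Klrk1, an activating receptor, were at 1.28 and 1.67 CPM in PCa 1 and at 0 and 0.103 CPM in PCa 2, and none of the 4 tested genes of the cytotoxic list passed.

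Of the B cell genes, Cd22, an inhibitory receptor, was at most 0.292 CPM in WT, 3.33 CPM in PIN 2 and 2.89 CPM in PCa 1, and Cd79b, the partner of Cd79a, was at 1.58 CPM in PIN 2 and 1.73 CPM in PCa 1 with at most 0.493 CPM in WT. Bank1, a B cell adaptor, was at 20.4 CPM in PIN 2 and 1.35 and 0.479 CPM in PCa. Blnk, another adaptor, ran at 61.0 to 143 CPM, far above the defining B cell gene Pax5, which reached 0.275 CPM at most, in PIN 2. None of the 5 tested B cell genes passed in any comparison.

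Of 5 tested immunoglobulin genes, Igkc, Ighg1 and Ighg2c were highest in PCa 1, as Igj was, and Ighm and Ighg2b in PIN 2. Igkc, the kappa light chain, was at 51.7, 0.95 and 63.5 CPM in WT, 23.3, 65.5 and 0.414 CPM in PIN, and 496 and 3.97 CPM in PCa. Ighg2c was at 35.8 CPM in PCa 1, 0.445 CPM in PCa 2 and 0.0452 to 9.28 CPM in WT. Ighm, the heavy chain of IgM, was at 25.1 CPM in PCa 1 against 66.4, 2.58 and 38.2 CPM in WT and 82.1 CPM in PIN 2, and Ighg2b at 10.5 CPM in PCa 1 against 18.7 CPM in PIN 2. WT 2, PIN 3 and PCa 2 had the 3 lowest values for Igj and for all 5 alike. Derl3, an endoplasmic reticulum protein also on the plasma cell list, went the other way and passed as lower in PCa (-3.94 ± 0.95, adjusted p = 0.0437, edgeR), from 101 to 259 CPM in WT to 20.3 and 1.95 CPM in PCa. Without any 1 WT or PIN library its adjusted p in edgeR's test was 0.0782 to 0.0843, which ended the call, and without PCa 1 its value was -6.44.

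Kit and the mast cell proteases went separate ways in PCa 2. Kit, a growth factor receptor of mast cells and several other cell types, rose in PCa (2.80 ± 0.69, adjusted p = 0.0478, edgeR), at 17.9 and 57.8 CPM against 1.67 to 8.19 CPM in WT. That call was lost without any 1 WT or PIN library (adjusted p = 0.0576 to 0.123 in edgeR's test) and without PCa 2, where the value was 1.72 (adjusted p = 0.161). The mast cell proteases were at or near 0 in PCa 2, where Cma1 and Mcpt4 had no count and Tpsb2 was at 0.0342 CPM, against 4.43, 5.52 and 3.60 CPM in PCa 1. Among dendritic cell genes, Cd209a was at 3.92 and 0.0684 CPM in PCa, Siglech at 1.35 and 0.103, Batf3 at 1.70 and 0.240, and Zbtb46 at 4.53 and 1.95, and none of the 5 tested passed.

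**Figure D5:**
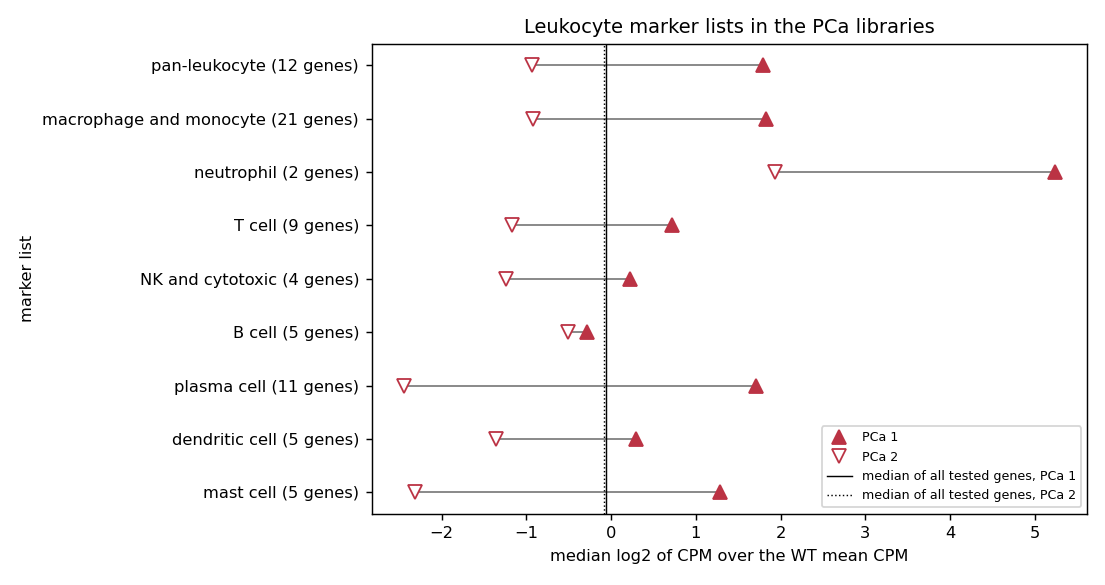
Median log2 of CPM over the WT mean for 9 leukocyte marker lists in PCa 1 and PCa 2, with the number of tested genes beside each name and the medians over all tested genes as vertical lines. The 12 pan-leukocyte genes have medians of 1.80 and -0.93, and the 11 plasma cell genes 1.71 and -2.44. Each list is higher in PCa 1 than in PCa 2, with the B cell list closest at -0.28 and -0.51.

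Markers of some other cells also differed between the PCa libraries, and their part in the leukocyte values was not tested. Summed TPM in PCa 1 and PCa 2 were 385 and 19.3 for 3 basal epithelial genes, 1038 and 459 for 6 fibroblast genes, and 146 and 46.1 for 5 red blood cell genes, while 5 endothelial genes were close, at 81.3 and 76.3. Smooth muscle genes, at 1843 to 5463 TPM in WT, were low in both, at 73.3 and 31.1 TPM, and all 5 passed as lower in PCa. The summed luminal epithelial genes were also lower in both, at 6408 and 4711 TPM against 64149 to 112520 TPM in WT, of which the secretory genes Tgm4 and Pbsn made up 89.2% to 93.9% in WT. Those were the 2 of 9 that passed as lower, while Krt8, a luminal keratin, was inside its WT range in both, at 452 and 333 CPM against 198 to 973 CPM. Lymph node stroma genes summed to 99.3 TPM in PIN 2 and 53.7 TPM in PCa 1 against 5.58 to 12.8 TPM in WT. This signal was nearly all Cxcl13, a chemokine that draws B cells, at 32.7 and 14.5 CPM, while Glycam1, Ccl19, Ccl21a and Madcam1, which define lymph node vessels and stroma, reached at most 0.642 CPM in any library. Chst4, the remaining gene of that list, was at 0.756 and 0.790 CPM in PIN 2 and PIN 3. It was at most 0.362 CPM in WT and at 0.193 CPM in PCa 1.

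For each member the tested genes with the most similar pattern were found by the root mean square difference of log2(CPM + 1) values centred on each gene's mean over the 8 libraries. The nearest to Ptprc was Syk (0.20), a kinase of leukocyte receptors, followed by Igkv12-44 and Igkv3-2, and the nearest to Lyz2 were Tyrobp (0.31), Itgb2 and C1qb, all genes of myeloid cells. Cd68 was nearest to Evi2a (0.16), Cd300ld and Clec4a2. Csf1r and Lck both had 2010110P09Rik as the nearest gene (0.22 and 0.17), with Fcgrt and Igfbp4 next for Csf1r and Dram1 and Zfp90 for Lck. Among the 3 nearest to Cd3e were Cd8a (0.14) and Gimap3 (0.17), and among those to Cd79a were Cd79b (0.15) and Gm9847. Ms4a1 was nearest to Pcdhb22 (0.21), Cd163l1 and Rnf17, none of them another gene of the B cell list, and Igj to Igkc (0.65), Fbp1 (1.17) and Ighg2c (1.26). The median over all tested genes ran from 0.62 for Cd79a to 2.59 for Igj, so distances can be set side by side only within 1 member. Between members, where the same limit holds, the smallest distance was 0.31, between Csf1r and Lck. The distances of Igj to the other members were 1.75 to 2.38, below its own median of 2.59 over all tested genes.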

How the data were processed

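Total RNA of 8 mouse prostate samples (3 WT, 3 PIN, 2 PCa) was sequenced by the authors. Per the labels, reads were trimmed with cutadapt 1.9.1 and aligned to mm9 with HISAT2 2.1.0, and genes were counted with HTSeq 0.6.1. The deposited table holds raw counts per gene and exon length, and the annotation and strand setting are not given in the sources used here.

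Of the 27036 genes, the 14034 above 1 CPM in at least 2 samples were fitted with edgeR 4.0.16 (R 4.3.3). The fit used TMM scaling and 1 quasi-likelihood model of 3 groups with 5 residual degrees of freedom. A call needed both a log2 fold change beyond 1 in size and a Benjamini-Hochberg adjusted p under 0.05 over all tested genes. The common biological coefficient of variation was 0.489. TPM used the exon lengths of the table. Nothing states that replicates are separate animals, so p-values measure the spread between these samples. Same-numbered samples were not treated as paired. Their deviations from the group means had correlations of -0.0389 to 0.265 (mean 0.0826), against -0.265 to 0.168 (mean -0.0422) for other pairs of groups' samples. The deviations of the 2 PCa libraries mirror each other, so these ranges cannot decide whether samples were paired.

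Alternatives were DESeq2 1.42.0, limma 3.58.1 (limma-trend), other scalings and filters, models of 2 groups, a replicate block and leaving out each library. Scripts were tested on simulated data. The 9 members and the marker lists were chosen with earlier results of these data known. Other genes named were, per leukocyte list, the non-members with the 2 highest and 2 lowest log2 fold changes in PCa against PIN and those called, and the 3 genes nearest in pattern to each member. Others (Ly6g, Elane, Ngp, Camp, Pax5, Cxcl13, Glycam1, Ccl19, Ccl21a, Madcam1, Chst4, Prdm1, Xbp1, S100a9, Cxcr2, Tgm4, Pbsn, Krt8) were named after their values were seen, as list genes that are defining or exceptions. No base sequence of Csf1r is reported here, and some genes that these rules name, and the transgene's name, are not reported here.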

Additional observations from a re-analysis of the deposited data

How the results depend on the processing

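The count of called genes moved with the method, and no method that kept every library called a member. Genes called in PCa against WT numbered 1198, and 2487 with DESeq2, 413 with the replicate block and 123 in a model of only those groups. For PCa against PIN they numbered 803, and 1984 with DESeq2, 151 with the block and 359 in a model of only those groups. For PIN against WT there were 0 in edgeR and 39 with DESeq2. Leaving out 1 library gave 346 to 2554 genes for PCa against WT, 78 to 2313 for PCa against PIN and 0 for PIN against WT. The samples share only a replicate number, and the block changed no call of a member but ended those of Derl3 and Kit. A model of only the groups compared ended the calls against WT of S100a8 (adjusted p = 0.0662, edgeR), Derl3 and Kit, upper-quartile scaling those of Derl3 and Kit, and limma-trend that of Kit.

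Leaving out 1 library called 0 to 2 members in PCa against WT, 0 to 1 in PCa against PIN and none in PIN against WT. The number of members above every WT library in PCa 1 and below every one in PCa 2 was 6 to 7 without 1 WT or PIN library, the number highest in PCa 1 was 6 to 7 and the number lowest in PCa 2 was 7. These checks and the scalings of that count were added after the values were seen.

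Without 1 library, log2 fold changes in PCa against WT ranged from -0.84 to 2.35 for Ptprc, -1.65 to 2.38 for Lyz2, -0.59 to 2.1 for Cd68, -2.03 to 1.14 for Csf1r, -2.72 to 0.90 for Cd3e, -3.27 to 0.85 for Lck, -4.03 to -0.19 for Ms4a1 and -2.74 to 4.66 for Igj. In PCa against PIN they ranged from -1.39 to 1.79 for Ptprc, -1.31 to 2.72 for Lyz2, -0.86 to 1.83 for Cd68, -2.48 to 0.68 for Csf1r, -2.94 to 0.99 for Cd3e, -3.57 to 0.55 for Lck, -4.08 to -0.42 for Ms4a1 and -2.01 to 5.39 for Igj. In PIN against WT they ranged from -0.26 to 0.91 for Ptprc, -0.042 to 0.46 for Cd68, -0.98 to 0.70 for Cd3e and -0.82 to 1.13 for Ms4a1, and without a change of sign 0.15 to 1.19 for Csf1r, 0.049 to 0.93 for Lck, -0.79 to -0.086 for Lyz2 and -1.31 to -0.17 for Igj.

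With every library kept, 160 of 168 member fold changes stayed on the same side and 8 changed sign, none of them called. Cd3e in PCa against WT went to -0.030 with no filter, -0.0055 with edgeR's filterByExpr, -0.55 with the block and -0.61 with limma-trend. Csf1r in PCa against WT went to -0.21 with the block and -0.23 with limma-trend, Igj in PIN against WT to 0.98 with the block and Cd3e in PIN against WT to -0.16 with limma-trend. With a mean of log2(TPM + 1) in place of a sum, the level against WT changed sign for the pan-leukocyte list in PCa 2 (1.74 to -0.36), the B cell list in PCa 1 (-0.40 to 0.44) and PCa 2 (0.31 to -0.27) and the mast cell list in PCa 2 (0.61 to -1.27). With summed CPM per kilobase, that of the B cell list in PCa 2 went to -0.099. With the pan-leukocyte list without Cd52 as the denominator, chosen after seeing the data, the ratio in PCa 1 minus the WT mean changed sign for Csf1r (to 0.46), Cd3e (to 0.16) and Lck (to 0.13). The cause of these changes was not tested, beyond the fewer samples of a fit without a library. With 2 PCa libraries and counts of 3 to 7 in PCa 2, the T and B cell genes had wide errors.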
